A study of Drosophila melanogaster with 2 samples.

Results

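The peaks described here are those on the X chromosome of Drosophila melanogaster, taken from the conservative list of binding sites of the transcription factor Ets98B, and they are set against the peaks on the autosomal arms 2L, 2R, 3L and 3R together. Of the 7157 peaks of that list, 1413 lay on X and 5742 on the 4 autosomal arms, and 2 lay elsewhere. Binding was measured by chromatin immunoprecipitation and sequencing (ChIP-seq) in whole pupae aged 2 days, with 2 biological replicates that form 1 group. The flies carried an Ets98B-eGFP fusion, chromatin was sonicated to 200 to 800 bp, and the fusion was pulled down with an anti-GFP antibody. The labels do not give the promoter that drove the fusion, the sex of the pupae or how many were pooled, and whole pupae mix all tissues. The conservative list was made by the authors from both replicates with the irreproducible discovery rate (IDR), which keeps peaks whose ranks are repeatable. The lists of the replicates alone held 1134 X peaks and 4714 autosomal peaks in replicate 1, and 1522 X peaks and 6434 autosomal peaks in replicate 2.

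Ets98B belongs to the ETS family, whose members bind DNA at a core of GGAA or GGAT. In Drosophila, XY males carry 1 X and XX females carry a pair, and the male X is transcribed at a raised rate by the dosage compensation complex, which holds the non-coding RNAs roX1 and roX2 and the acetyltransferase mof. Because the sex of the pupae was not collected, the number of X copies per autosome pair in the chromatin is unknown, and X copy number and binding per copy cannot be told apart in any level given below. Peaks are positions within the same chromatin and not replicates of a condition. The intervals below therefore cover the spread over peaks and 100 kb bins of the genome, not the spread over animals.

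The sequences below reach 50 bp to either side of the summit at 5 of the 8 strongest X peaks, shown because they carry the highest signal. The other 3, at Ugalt, MFS10 and lawc, hold bases of untranslated exons and are not printed. They are written on the forward strand of dm6 from the Release 6 assembly, with GGAA, GGAT or their reverse complements in capitals.
CG32772 (chrX:4910336-4910436): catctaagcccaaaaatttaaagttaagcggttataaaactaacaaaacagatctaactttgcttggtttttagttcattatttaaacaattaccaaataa
ph-p (chrX:2137296-2137396): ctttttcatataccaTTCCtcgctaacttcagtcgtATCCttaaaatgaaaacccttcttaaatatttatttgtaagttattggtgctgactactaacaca
Gapdh2 (chrX:15867934-15868034): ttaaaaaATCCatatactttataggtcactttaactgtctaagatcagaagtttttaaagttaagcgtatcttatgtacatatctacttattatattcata
CG3726 (chrX:5918863-5918963): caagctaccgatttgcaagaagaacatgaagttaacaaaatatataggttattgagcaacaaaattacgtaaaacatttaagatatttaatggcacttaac
Tlk (chrX:3742172-3742272): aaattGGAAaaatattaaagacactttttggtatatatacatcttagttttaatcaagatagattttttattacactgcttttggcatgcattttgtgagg
The windows of CG32772 and CG3726 hold no GGAA or GGAT on either strand. The window of ph-p, which encodes a subunit of Polycomb repressive complex 1, holds 2 matches, and those of the glycolytic gene Gapdh2 and the chromatin kinase gene Tlk hold 1 each. Their G+C was 25.7% at CG32772, 31.7% at ph-p, 23.8% at Gapdh2, 28.7% at CG3726 and 25.7% at Tlk. The 3 windows not printed were richer in G+C, with 35.6% at Ugalt, 40.6% at MFS10 and 60.4% at lawc.

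X carried 19.7% of the peaks of the 5 arms, with 17.7% of their sequence and 15.8% of their protein-coding genes. X had 60.2 peaks per Mb, and the autosomal arms had 52.8 peaks per Mb together and 50.4 to 56.4 peaks per Mb singly. In replicate 1 the values were 48.3 peaks per Mb on X and 43.3 on autosomal arms, and in replicate 2 they were 64.8 on X and 59.1 on autosomal arms, so X was above each of the 4 autosomal arms in these lists. The replicates averaged 56.6 ± 11.7 peaks per Mb on X and 51.2 ± 11.2 on autosomal arms (SD, n = 2). Both values were higher in replicate 2, whose list was longer. These SDs therefore do not measure the spread of the difference between X and autosomal arms. Over 100 kb bins the difference was 7.40 peaks per Mb (95% interval 0.0662 to 14.7, p = 0.0480 in a linear model with HC3 errors, n = 235 X and 1089 autosomal bins), with an adjusted p of 0.108 over the 9 single comparisons made here (Benjamini-Hochberg). It did not pass after that adjustment. In each replicate alone the difference was 4.97 peaks per Mb (replicate 1) and 5.68 (replicate 2), and both intervals held 0. With 1 X against 4 autosomal arms, an exact permutation of whole arms could not go below p = 0.2.

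The share of bins without a peak was described without a test. Of 235 bins of 100 kb on X, 33 held no summit (14.0%), and of 1089 autosomal bins 267 held none (24.5%). The median bin held 5 summits on X and 4 on autosomal arms, and the fullest bin held 23 on X and 33 on an autosomal arm. The nearest other summit was at a median of 1846 bp on X and 2302 bp on autosomal arms. Another summit lay within 1000 bp of 461 X peaks (32.6%, 95% Wilson interval 30.2 to 35.1%) and of 1642 autosomal peaks (28.6%, 27.4 to 29.8%). On a log10 scale the difference in spacing was -0.0551 (95% interval -0.104 to -0.00568, p = 0.0289 in the linear model with bins as clusters, n = 1413 X and 5742 autosomal peaks). The adjusted p was 0.0866, so spacing did not pass either. The difference was -0.0657 in replicate 1 (unadjusted interval -0.127 to -0.00409) and -0.0439 in replicate 2 (-0.0945 to 0.00677).

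**Figure D1:**
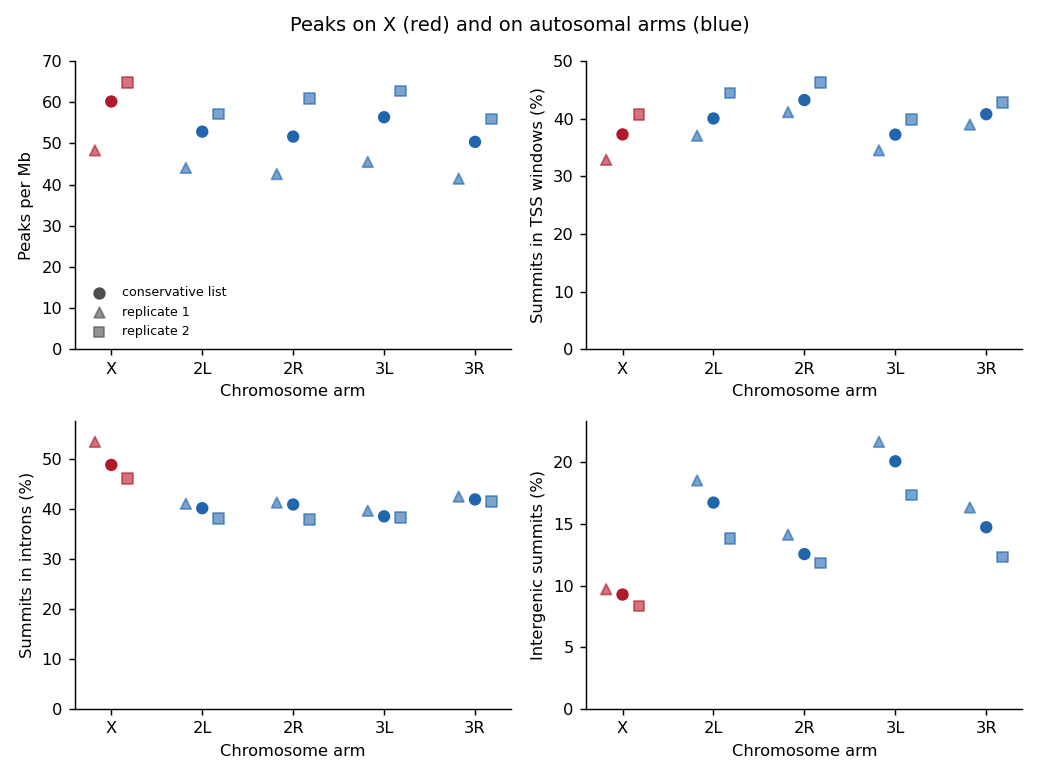
Peaks per Mb and the shares of summits in TSS windows, introns and intergenic sequence (%, y axes from 0) on each chromosome arm (x axes), with X in red at the left and autosomal arms in blue. Circles are the conservative list, triangles replicate 1 and squares replicate 2. The X intron share (48.9% in the conservative list) lies above all 4 autosomal arms and the X intergenic share (9.27%) below all 4 in every list shown.

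X summits fell more often in introns and less often in intergenic sequence than autosomal summits. Introns held 691 X summits (48.9%) and 2322 autosomal summits (40.4%), a difference of 8.46 percentage points (95% interval 4.08 to 12.9, adjusted p = 7.05e-04 in the linear model with bins as clusters, n = 1413 X and 5742 autosomal peaks). Intergenic sequence held 131 X summits (9.27%) and 927 autosomal summits (16.1%), a difference of -6.87 points (-9.84 to -3.91, adjusted p = 4.92e-05 in the same model, n = 1413 X and 5742 autosomal peaks). Single autosomal arms ran from 38.6% (3L) to 42.0% (3R) in introns and from 12.6% (2R) to 20.1% (3L) in intergenic sequence. The p-values of the model do not measure that spread over arms, and the floor of p = 0.2 for an exact permutation of whole arms holds here too. The intron share was 53.5% on X and 41.2% on autosomal arms in replicate 1, and 46.2% on X and 39.1% on autosomal arms in replicate 2, or 49.9% ± 5.19 on X and 40.2% ± 1.47 on autosomal arms (SD, n = 2). The intergenic share was 9.02% ± 0.959 on X and 15.8% ± 2.73 on autosomal arms (SD, n = 2). The SDs do not measure the spread of the differences within replicates. For introns the difference was 12.3 points in replicate 1 and 7.07 in replicate 2. For intergenic sequence it was -8.06 points in replicate 1 and -5.55 in replicate 2. The intron and intergenic differences were the only 2 of the 9 comparisons that passed after adjustment. In each replicate alone the unadjusted interval of both left out 0.

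The sequence around the peaks differs between X and autosomal arms in the same classes, a description with no test. The 100 kb bin around an X peak was on average 45.8% intronic and 13.2% intergenic, and that around an autosomal peak was 39.8% intronic and 19.0% intergenic. With the bin's intronic share as a further term, a choice made after the result was seen, the difference in intron share was 3.31 points (95% interval -0.13 to 6.75), and it no longer passed. With the bin's intergenic share, the difference in intergenic share was -2.10 points (-4.46 to 0.260), which did not pass either. Relative to the sequence of the whole arm, X introns held 1.19 times their share of summits and autosomal introns 1.04 times. Intergenic sequence held 0.407 times its share on X and 0.609 times on autosomal arms. Over single autosomal arms these ratios ran from 0.970 (3R) to 1.10 (2R) in introns and from 0.488 (2R) to 0.670 (3L) in intergenic sequence.

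The share of summits at transcription start sites (TSSs) did not differ past the threshold. Windows of 500 bp to either side of the TSSs of protein-coding genes held 527 X summits (37.3%, 95% Wilson interval 34.8 to 39.9%) and 2310 autosomal summits (40.2%, 39.0 to 41.5%). The difference of -2.93 points had an interval of -6.62 to 0.752 and an adjusted p of 0.214 in the linear model (n = 1413 X and 5742 autosomal peaks). In replicate 1 alone the share was 32.9% on X and 37.9% on autosomal arms, a difference of -4.97 points whose unadjusted interval left out 0 (-8.94 to -1.01). In replicate 2 alone it was 40.7% on X and 43.2% on autosomal arms, a difference of -2.46 points (-6.22 to 1.31). These windows make up 11.0% of X and 11.6% of the autosomal arms, so the summit share was 3.39 times the share of sequence on X and 3.47 times on autosomal arms. The remaining classes were rare on X, with 19 summits in 5′ UTRs, 9 in coding exons, 24 in 3′ UTRs and 12 in exons of other gene types. The 3′ UTR share was 1.70% on X and 0.592% on autosomal arms, a difference of 1.11 points (95% interval 0.369 to 1.84) that was tested only after the shares were seen. It rests on 24 X summits.

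**Figure D2:**
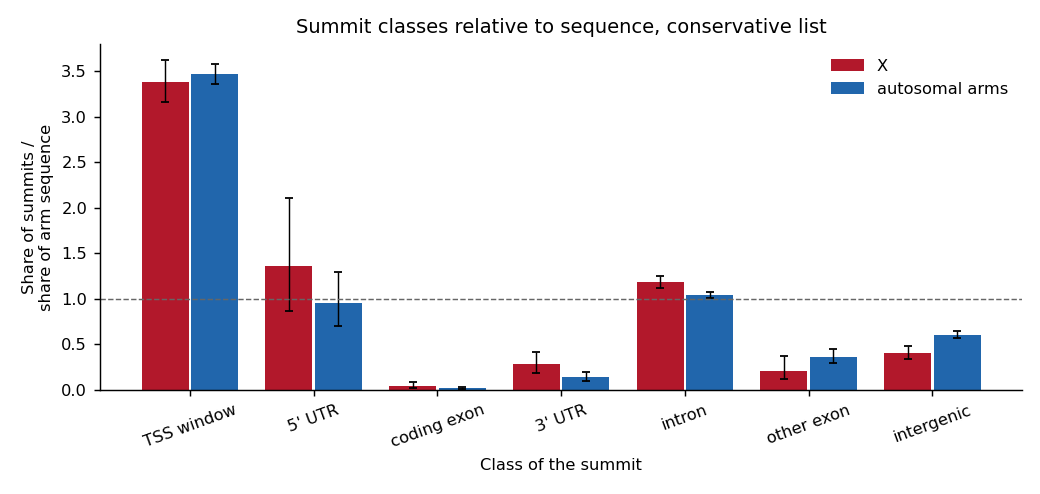
Share of conservative summits in each class divided by that class's share of the arm sequence (y axis, ratio from 0), for X (red) and autosomal arms (blue). Error bars are 95% Wilson intervals of the summit share, which cover counting only, and the dashed line marks a ratio of 1. TSS windows stand at 3.39 on X and 3.47 on autosomal arms, while intergenic sequence stands at 0.407 on X and 0.609 on autosomal arms.

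The genes that host intronic peaks are long. The 691 intronic X summits lay in 269 host genes, 43 of which held 5 or more, and the 2322 autosomal ones lay in 1006 host genes, 128 of which held 5 or more. The median host gene was 33781 bp long on X and 33182 bp on autosomal arms, against 2521 bp for all protein-coding genes on X and 2088 bp for those on autosomal arms. Genes of 50 kb or more made up 3.14% of X genes and 2.03% of autosomal genes, and they held 37.2% of the intronic X peaks and 32.9% of the autosomal ones. Intronic summits lay a median of 3295 bp from the nearest TSS on X and 3633 bp on autosomal arms.

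Among X genes, 760 of 2196 had a summit within the gene or 1000 bp of it, and 73 had 5 or more. The cell adhesion gene kirre, which acts in myoblast fusion, had the most. It spans 394 kb and held 29 summits in the conservative list, 24 in replicate 1 and 28 in replicate 2. CG1677 and Tlk followed with 20 each, and Hr4, a nuclear receptor gene of the ecdysone response, and mamo, which encodes a zinc-finger transcription factor, had 18 each. CG43658 held 16 summits. The forkhead gene CHES-1-like, the Max partner gene Mnt, the MAP kinase pathway gene Raf and the integrin gene mew held 14 each. Between 10 and 21 of the summits of each of these 10 genes were intronic. Their highest signals ranged from 357 at Mnt to 1354 at Tlk.

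Density varied along X. The 1 Mb bins with the most summits held 103 each and began 2, 6 and 13 Mb from the distal end, with 79, 78 and 71 peaks there in replicate 1 and 115, 104 and 107 in replicate 2. The last full bin at the centromere end held 3 summits, and the partial bin after it held 0. The fullest 100 kb bins, chrX:2100001-2200000 and chrX:3700001-3800000, held 23 summits each. In the first, ph-p had 6 summits, and Pgd, a pentose phosphate pathway gene, and wapl, a cohesin release factor gene, had 3 each. In the second, 20 of 23 lay at Tlk and 4 at the GTPase gene Rala, and some summits counted for both. In the third fullest, chrX:1900001-2000000, Hr4 held 18 of 21 summits, and Edem1 and CG3587 had 2 each.

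The longest stretches of X without a conservative summit lay in its proximal part. The first, chrX:21631721-22461541, runs from a peak near DIP1 to one near Usp2 and holds 25 genes within it, with 2 summits in replicate 1 and 1 in replicate 2. It contains 64320 undetermined bases. The second, chrX:22833705-23542271, runs from a peak near CG42346 to the end of the assembled arm and holds 19 genes, with 1 summit in replicate 1 and 0 in replicate 2. The third, chrX:20655234-21042840, lies between peaks near Cyp6v1 and Mgstl and holds 22 genes, with 0 summits in replicate 1 and 3 in replicate 2. How well reads could be placed in these stretches was not tested.

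Median signal on X was close to that on autosomal arms. The authors' signal value, on a scale that no source used here states, had a median of 130.3 on X and 130.6 on autosomal arms. The mean difference in log2 signal was 0.01 (95% interval -0.05 to 0.07, adjusted p = 0.757 in the linear model, n = 1413 X and 5742 autosomal peaks). Medians in the replicates were 71.5 on X and 71.1 on autosomal arms in replicate 1, and 69.0 on X and 69.8 on autosomal arms in replicate 2. In the upper tail X lay above the autosomal arms from the 75th to the 98th percentile but not at the 99th, without a test. The 90th percentile was 380 on X and 347 on autosomal arms. The 98th was 819 on X and 783 on autosomal arms, and the 99th was 1090 on X and 1133 on autosomal arms. X held 19.7% of all conservative peaks of the 5 arms. It held 3 of the 15 strongest peaks and 7 of the strongest 50 (14.0%, 95% Wilson interval 6.95 to 26.2%). It held 21 of the strongest 100 (95% Wilson interval 14.2 to 29.98%). Of the strongest 500 it held 107 (21.4%), and of the strongest 1000 it held 229 (22.9%, 20.4 to 25.6%). The intervals for the strongest 50 and 100 held 19.7%, and that for the strongest 1000 left it out. These intervals treat peaks as independent and cover counting only, and no test was run on these shares.

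**Figure D3:**
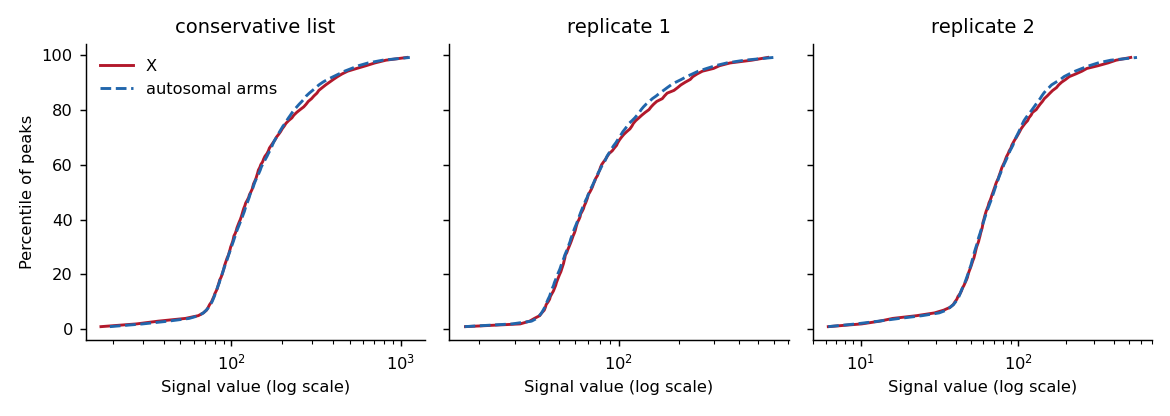
Percentile of peaks (y axis, 1 to 99) against the authors' signal value (x axis, log scale) in the conservative list and in each replicate, for X (solid red) and autosomal arms (dashed blue). The curves overlie each other around the medians of 130.3 on X and 130.6 on autosomal arms in the conservative list, and the X curve runs to the right near the 90th percentile (380 on X and 347 on autosomal arms) but not at the 99th (1090 on X and 1133 on autosomal arms).

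The strongest X peak, with a signal of 3211, was at Ugalt, the gene of a UDP-galactose transporter, and ranked 2 over the 5 arms. The others were weaker by far. The intronic peak in CG32772 (chrX:4909887-4910759) had a signal of 1874, with 748 in replicate 1 and 1004 in replicate 2. The TSS peak of ph-p (chrX:2136965-2137541) had 1716, with 901 in replicate 1 and 813 in replicate 2. The TSS peak of the transporter gene MFS10 (chrX:13131176-13131513) had 1539, with 715 in replicate 1 and 817 in replicate 2, and that of Gapdh2 (chrX:15867808-15868172) had 1418, with 637 in replicate 1 and 784 in replicate 2. Replicate 2 exceeded replicate 1 at each of these but ph-p.

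Intronic peaks followed at CG3726 (signal 1362) and Tlk (1354). The peak at the start of lawc, inside the TBP-related factor gene Trf2, had 1211, with 325 in replicate 1 and 904 in replicate 2, which was the widest gap between the replicates among the 15 strongest X peaks. It also had the highest G+C of these windows, 60.4%. Further intronic peaks lay in norpA (1210), the phospholipase C gene of phototransduction, in prage (1191) and in Raf (1119). TSS peaks of the tetraspanin gene Tsp5D (1155), of moody (1135), a receptor gene of the blood-brain barrier, of CG4586 (1109) and of TRAM (1092) completed the 15. Of these 15 peaks 9 were at TSSs and 6 were in introns, and each was matched within 100 bp in both ranked lists.

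X and autosomal peaks of the conservative list had matches in both replicates at close shares. That list keeps peaks with repeatable ranks, so high shares were favoured in advance and are no separate support. Both ranked lists held a summit within 100 bp for 1274 X peaks (90.2%, 95% Wilson interval 88.5 to 91.6%) and 5153 autosomal peaks (89.7%, 88.9 to 90.5%). Both thresholded lists held 59.9% of X peaks and 59.6% of autosomal peaks. The log2 ratio of the signal in replicate 2 to that in replicate 1 averaged 0.20 on X and 0.19 on autosomal arms, a difference of 0.01 (95% interval -0.02 to 0.05, adjusted p = 0.614 in the linear model, n = 1274 X and 5153 autosomal peaks). It was taken over the same selected peaks and does not cover peaks found in 1 replicate only.

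The share of weaker candidates on X was given in each replicate by rank. The ranked lists hold more peaks than the thresholded ones, here called candidates. In replicate 1, X carried 6186 of the candidates (17.3%, 95% Wilson interval 16.9 to 17.7%), and in replicate 2 it carried 9718 (20.5%, 20.1 to 20.8%). Among the 5000 highest in signal, X carried 19.0% in replicate 1 and 18.6% in replicate 2. From rank 10001 to 20000 it carried 16.4% in replicate 1 and 19.1% in replicate 2. From rank 20001 to 30000 it carried 16.1% in replicate 1 and 20.1% in replicate 2. Below rank 30000 it carried 18.3% in replicate 1 and 22.5% in replicate 2. These last ranks are unlike, because they end at 35715 in replicate 1 and at 47459 in replicate 2. The median signal of X candidates was 14.6 in replicate 2, with 15.9 for autosomal candidates, and 19.4 in replicate 1, with 18.9 for autosomal candidates. With 1 sample per side this difference has no test, and the part of read depth, which no source used here gives, was not tested.

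**Figure D4:**
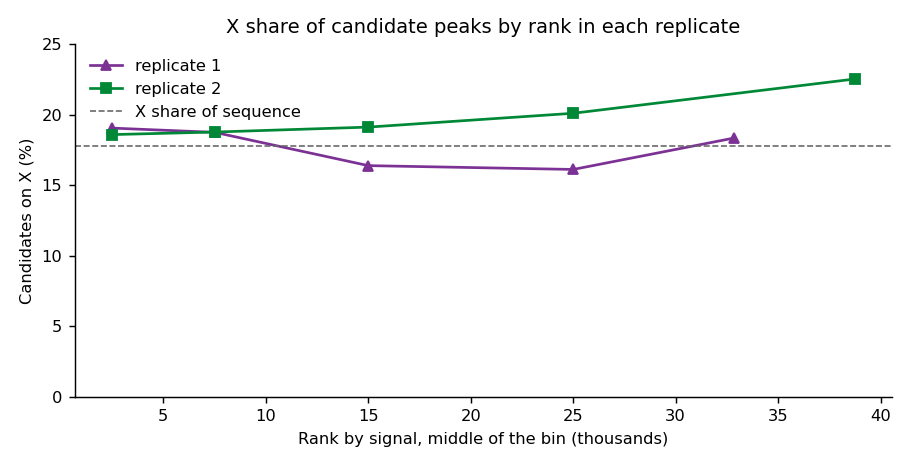
Share of candidate peaks on X (y axis, %, from 0) by rank of signal within each replicate (x axis, middle of each bin in units of 1000 ranks), with replicate 1 as triangles and replicate 2 as squares. The dashed line is the X share of sequence of the 5 arms, 17.7%, and the last point is 18.3% in replicate 1 and 22.5% in replicate 2. The last bin ends at rank 35715 in replicate 1 and 47459 in replicate 2.

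Summits were poor in G+C on X and autosomes. The summit windows averaged 37.5% G+C on X and 37.7% on autosomal arms, with a difference of -0.159 points (95% interval -0.878 to 0.561, adjusted p = 0.757 in the linear model, n = 1413 X and 5742 autosomal peaks), while the arms as a whole hold 42.5% on X and 42.2% on autosomes. In replicate 1 the difference was 0.0263 points (-0.697 to 0.750), and in replicate 2 it was -0.815 points, with an unadjusted interval that left out 0 (-1.57 to -0.0644). In the 25% of peaks with the highest signal the mean was 33.6% ± 8.47 on X (SD over 361 peaks) and 32.9% ± 9.64 on autosomal arms (SD over 1428 peaks), against 40.8% on X and 41.3% on autosomal arms in the lowest 25%. Windows 500 bp to either side averaged 41.1% on X and 42.3% on autosomal arms, a difference of -1.21 points (unadjusted interval -1.90 to -0.530). This flank difference was not among the 9 comparisons. Its unadjusted interval left out 0 in both replicates as well, at -1.61 points in replicate 1 and -1.14 points in replicate 2.

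**Figure D5:**
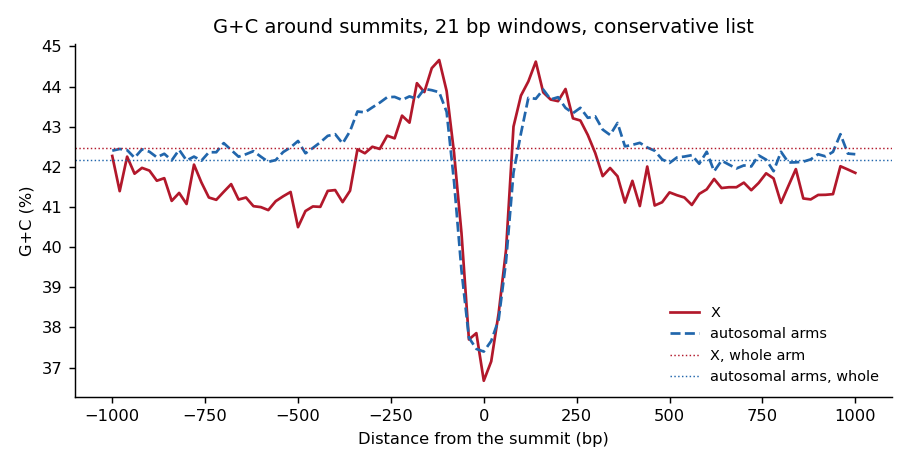
Mean G+C (y axis, %, not from 0) in 21 bp windows by distance from the summit (x axis, bp) in the conservative list, for X (solid red) and autosomal arms (dashed blue), with the arm-wide values as dotted lines (42.5% on X and 42.2% on autosomal arms). Both curves dip at the summit, and X lies below the autosomal arms around 500 bp, where the flank windows average 41.1% on X and 42.3% on autosomal arms.

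The 16 words were counted on either strand of the summit windows as letters only, and 5 of the 16 (31.2%) differed between X and autosomes at an adjusted p under 0.05 (linear model with bins as clusters, Benjamini-Hochberg over the words). The ETS word GGAA was in 49.5% of X windows and 49.0% of autosomal windows, and it did not pass (difference 0.497 points, 95% interval -2.32 to 3.32). The other ETS word, GGAT, was in 27.7% of X windows and 31.8% of autosomal windows (adjusted p = 0.0205 in the linear model, n = 1413 X and 5742 autosomal windows). The gap was widest at TSSs, without a test, with 24.5% on X and 32.7% on autosomal arms. It was 28.9% on X and 30.1% on autosomal arms in introns, and 31.3% on X and 33.4% on autosomal arms in intergenic sequence. Among all windows of that length along the arms GGAT was in 43.6% on X and 43.7% on autosomal arms, and GGAA in 54.9% on X and 56.6% on autosomal arms, so neither word was more frequent at summits than in the arm. GAGAG, the word of GAGA factor, was in 14.5% of X windows and 17.1% of autosomal windows, with an adjusted p of 0.0532 in the same model (n = 1413 X and 5742 autosomal windows). It lay close to the threshold, and it passed under 6 of the 8 alternatives but in neither replicate alone.

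AAAAAA and CACACA were more frequent at X summits in the conservative list. AAAAAA was in 32.4% of X windows and 27.5% of autosomal windows (adjusted p = 0.0121 in the linear model, n = 1413 X and 5742 autosomal windows), and in 20.4% of all windows of X and 17.4% of those of autosomal arms, without a test. In windows 500 bp to either side AAAAAA averaged 25.1% on X and 19.1% on autosomal arms, also without a test. The higher X share was thus not confined to summits. CACACA was in 11.3% of X windows and 8.46% of autosomal windows (adjusted p = 0.0121, n = 1413 X and 5742 autosomal windows), and in 9.19% of all windows of X and 7.87% of those of autosomal arms. Its share 500 bp to either side averaged 12.6% on X and 10.2% on autosomal arms. CACACA was thus less frequent at summits than beside them on X and autosomal arms, without a test. By class, also without a test, it was in 13.1% of X and 8.48% of autosomal summit windows at TSSs. It was in 9.84% on X and 8.35% on autosomal arms in introns, and in 9.92% on X and 7.98% on autosomal arms in intergenic sequence. Runs of at least 8 A or T bases were in 16.1% of X summit windows and 9.75% of autosomal ones, without a test. The windows below are the strongest X summits outside untranslated exons that hold CACACA, with that word or its reverse complement in capitals.
Hmt4-20 (chrX:655092-655192): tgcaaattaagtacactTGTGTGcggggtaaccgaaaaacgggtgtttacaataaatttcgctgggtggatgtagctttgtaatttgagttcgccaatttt
CG34417 (chrX:6549817-6549917): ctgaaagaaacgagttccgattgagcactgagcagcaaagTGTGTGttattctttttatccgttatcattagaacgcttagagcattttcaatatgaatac
The first is at Hmt4-20, a histone H4 lysine methyltransferase gene, with a signal of 825, and the second is in an intron of CG34417, with 621.

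AGGTCA and GGTCACAC were rarer at X summits in the conservative list. AGGTCA, the half-site of nuclear receptors, was in 15 X windows (1.06%) and in 1.97% of autosomal windows (adjusted p = 0.0218 in the linear model, n = 1413 X and 5742 autosomal windows), and in 2.54% of all windows of X and 2.76% of those of autosomal arms. GGTCACAC, the word of the promoter factor M1BP, was in 3 X windows (0.212%, 95% Wilson interval 0.0722 to 0.622%) and in 0.766% of autosomal windows (adjusted p = 0.0121, n = 1413 X and 5742 autosomal windows), and in 0.244% of all windows of X and 0.203% of those of autosomal arms. So few X windows make the errors of the model uncertain. In replicate 1 alone 0 of the 16 words passed, and in replicate 2 alone 1 did, AAAAAA. The 2 strongest X windows with GGTCACAC are shown with the word or its reverse complement in capitals.
Hgsnat (chrX:4919642-4919742): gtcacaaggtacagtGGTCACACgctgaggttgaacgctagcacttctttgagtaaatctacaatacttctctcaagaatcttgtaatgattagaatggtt
Myc (chrX:3380304-3380404): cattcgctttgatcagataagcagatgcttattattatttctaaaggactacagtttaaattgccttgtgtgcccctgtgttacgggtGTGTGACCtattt
The first is in an intron of Hgsnat (signal 429) and the second in an intron of the growth regulator gene Myc (186).

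A protein-coding gene was called bound when a summit lay within 500 bp of any of its TSSs. On X 484 of 2196 genes were bound (22.0%), and on autosomal arms 2509 of 11669 were (21.5%). The difference was 0.539 points (95% interval -2.05 to 3.13, adjusted p = 0.757 in the linear model, n = 2196 X and 11669 autosomal genes). The share was 17.0% on X and 18.1% on autosomal arms in replicate 1, and 24.4% on X and 23.9% on autosomal arms in replicate 2. Of the 484 X genes, 314 (64.9%) were also bound in both replicate lists, and of the 2509 autosomal genes 1716 (68.4%) were. Among genes with 3 or more TSSs, 145 of 241 X genes were bound (60.2%, 95% Wilson interval 53.9 to 66.1%) and 473 of 872 autosomal genes (54.2%, 50.9 to 57.5%). Among genes with 1 TSS, 13.2% on X (11.55 to 14.96%) and 15.9% on autosomal arms (15.1 to 16.6%) were bound. Genes with 3 or more TSSs made up 11.0% of X genes and 7.47% of autosomal genes.

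The 11 gene lists are read against the 22.0% of all X genes that were bound. That share rose with TSS number, from 13.2% of X genes with 1 TSS to 31.6% with 2 and 60.2% with 3 or more. The lists were not matched for TSS number, and some members have many, such as dnc with 9 and Sh with 8. The part of TSS number in the shares of the lists was not tested. Of 6 X genes of dosage compensation and sex determination, 1 was bound. It was Sxl, the master gene of female fate, with a weak TSS peak (chrX:7097372-7097751) of signal 20.9, a candidate of 38.6 in replicate 1 and no match within 100 bp in replicate 2, and a stronger peak of 273 elsewhere in the gene. In the thresholded lists of the single replicates, Sxl was not bound in replicate 1 and was bound in replicate 2, through summits more than 100 bp from that of the TSS peak, and no other gene of the 6 had a summit within 1000 bp in either. No conservative summit lay within 1000 bp of mof, sisA, sc, run or snf. Neither roX gene had a conservative summit within 1000 bp. The nearest summit to roX1 (chrX:3857230-3862697) was 5943 bp away, at a TSS of yin, with a signal of 584. The nearest to roX2 (chrX:11579065-11580432) was 2330 bp away, with a signal of 114. Within 1000 bp, the highest ranked candidate had a signal of 27.9 in replicate 1 and 42.0 in replicate 2 at roX1, and of 21.5 in replicate 1 and 49.0 in replicate 2 at roX2, where 1 summit passed in replicate 2.

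Of 6 X genes of ecdysone response and metabolism, 2 were bound, namely Hr4 (signal 134 at the TSS) and usp (102), the partner of the ecdysone receptor. The summit of usp also lay at a TSS of Actn and CG4313. The early gene br had 3 summits outside its TSS windows, the highest with 481. In the single replicates 1 of these 6 was bound in replicate 1 and 2 in replicate 2. Of 20 signalling genes 7 were bound (35.0%, 95% Wilson interval 18.1 to 56.7%), with 5 in replicate 1 and 7 in replicate 2. The strongest were the Wnt pathway kinase gene sgg (679), the phosphatase gene csw (362), the Hippo regulator gene Mer (289), the Dpp antagonist gene sog (167) and the receptor gene N (139). Of 20 genes of developmental transcription factors 7 were bound (35.0%, 18.1 to 56.7%), with 6 in replicate 1 and 5 in replicate 2, led by the wing selector gene sd (244), the homeobox gene ct (232), bi (148), peb (135) and btd (131).

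Of 15 genes of chromatin and transcription 7 were bound (46.7%, 95% Wilson interval 24.8 to 69.9%), with 6 in replicate 1 and 9 in replicate 2. After ph-p came the topoisomerase gene Top1 (403), Trf2 (353), Mnt (321) and Tlk (316). Of 15 neuronal genes 6 were bound (40.0%, 19.8 to 64.3%), with 7 in replicate 1 and 8 in replicate 2. The phosphodiesterase gene dnc had a TSS signal of 786, the neuronal RNA-binding protein gene elav 724, the scaffold gene dlg1 397, the potassium channel gene Sh 271 and the adenylyl cyclase gene rut 142. Of 8 muscle and cytoskeleton genes 5 were bound, with sqh, the myosin regulatory light chain gene, at 333, the integrin gene if at 149, Actn at 114, Act5C at 103 and sn at 85.3. That count was 2 in replicate 1 and 6 in replicate 2. None of 7 genes of eye and body pigmentation was bound in the conservative list, where 3 of them had a summit elsewhere, while 1 was bound in replicate 1 and 0 in replicate 2.

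Of 14 X genes of cytosolic ribosomal proteins 10 were bound (71.4%, 95% Wilson interval 45.4 to 88.3%), with 7 in replicate 1 and 10 in replicate 2. Their TSS signals were moderate. The median over bound genes of the highest TSS signal was 127, against 125.5 over X peaks in TSS windows and 130.3 over all X peaks. The highest were RpL22 (198), RpS28b (176), RpL17 (160), RpS5a (144) and RpS14b (136). RpS14b has a near-identical neighbour, RpS14a, whose reads could be shared. Of 11 genes of mitochondrial ribosomal proteins 2 were bound, mRpL33 (136), whose peak it shares with norpA, and mRpL16 (93.6), which shares it with trr, with 1 bound in replicate 1 and 3 in replicate 2. Of 9 complex I genes 3 were bound, ND-ASHI (742), ND-24 (193) and ND-MNLL (74.7), each with another gene's TSS in reach of the same summit, and 2 were bound in replicate 1 and 3 in replicate 2. The lists are small, and no list was tested.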

How the data were processed

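The authors deposited peak lists on dm6, per the labels, for each replicate and for both together. No source used here names the aligner or caller. In the deposited lists the signal is the value the caller gave each peak, the deposited score column a scaled IDR score of at most 1000, and the deposited −log10 columns the q-value and, in ranked lists, the IDR. In the ranked series-level lists, 16 columns of the compared lists were not used. No read totals are given, so depth is unknown, and Wilson intervals cover counting error only. The 16 repeated intervals with another summit were kept.

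Summits were classed by Ensembl release 115 (BDGP 6.54), with TSS windows (500 bp) ranked first, then 5′ UTRs, coding exons, 3′ UTRs, introns, exons of non-coding genes and intergenic sequence. The intron class covers protein-coding genes only, so introns of non-coding genes were counted as intergenic. The 3′ UTR class is all exon sequence of protein-coding genes outside coding sequence, 5′ UTRs and TSS windows. Sequence came from the Release 6 assembly. Differences between X and autosomal arms were coefficients of linear models (statsmodels 0.14.6, Python 3.11.15), with errors clustered in 100 kb bins, or HC3 over bins for density, with two-sided 95% intervals, and were tested on simulated data. p-values were adjusted by Benjamini-Hochberg over 9 comparisons and, separately, over 16 words. Replicate signals are those of ranked summits within 100 bp.

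The named genes are those of the 15 strongest X peaks, up to 5 bound X members of each list with the highest signal, the 10 X genes with the most summits, up to 3 genes of the fullest bins, genes beside the longest stretches without a summit, and roX1 and roX2. Unbound members of the dosage list, br, the named pairs sharing a summit, and the printed windows with CACACA or GGTCACAC were chosen after their values were seen. The ecdysone entry phm was corrected to phtm after a wrong match was noticed. The members and lists were chosen with earlier results of these data known. Alternatives used the other series-level list, each replicate alone, peaks above the median signal, arms without 5 Mb at the centromere end, 1 peak per repeated interval, a 1000 bp window, covariates, and each autosomal arm left out.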

Additional observations from a re-analysis of the deposited data

How the results depend on the processing

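Both replicates belong to 1 group, and X and autosomal values were compared within each replicate list. No test over the 2 replicate differences was run. Here a difference passes where its unadjusted 95% interval leaves out 0, and a word where its adjusted p is under 0.05. By that rule density and spacing passed in the conservative list, though neither did after adjustment over the 9 comparisons. The intron and intergenic differences kept their direction and passed under every alternative run except the shares of the bin as covariates (3.31 and -2.10 points). The log2 signal (0.0076 to 0.0453) and the replicate ratio (0.0143 to 0.0243) never passed. The cause of the changes below was not tested.

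The density difference, 7.40 peaks per Mb in the conservative list, passed with the TSS-window share of the bin as covariate (9.02) and without arm 3L (8.66). It did not pass with the other series-level list (6.61), above the median signal (3.63), without the centromere ends (6.96), with 1 peak per repeated interval (7.23), without arm 2L (7.44), 2R (7.06) or 3R (6.38), or in either replicate (4.97 to 5.68). Spacing did not pass with the other list (-0.028), without 3R (-0.046) or in replicate 2 alone (-0.0439), and passed in replicate 1 alone (-0.0657). The TSS share passed above the median signal (-5.79), without 3L (-4.06) and in replicate 1 alone (-4.97), but not in replicate 2 alone (-2.46). Summit G+C passed with the other list (-0.794) and in replicate 2 alone (-0.815). It changed sign above the median signal (0.00382), without 2R (0.172) and in replicate 1 alone (0.0263). The G+C of the flanks, a different measure put in its place, passed (-1.21).

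The bound gene share changed sign above the median signal (-0.780), with the number of TSSs as a covariate (-1.18) and in replicate 1 alone (-1.09), and was 0.507 in replicate 2 alone. GGAA changed sign without the centromere ends (-0.167). The count of words that passed was 1 above the median signal, where it was GAGAG and none of the 5 words that passed over all peaks, and 0 to 1 in single replicates, and 5 to 7 elsewhere, but not always of the same words. GAGAG passed with the other list, above the median signal, without the centromere ends, with 1 peak per repeated interval and with either covariate (adjusted p from 0.00881 to 0.0495 in the linear model, n = 705 to 1687 X windows). AGGTCA did not pass with the other list (adjusted p = 0.109, n = 1687 X and 7097 autosomal windows). GGAT did not pass without the centromere ends (adjusted p = 0.0534, n = 1277 X and 5510 autosomal windows). No read depth was given, so its effect on these lists is unknown.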
